A study of Mus musculus with 7 samples.

Results

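The ligands, receptors, docking proteins and binding proteins of the insulin and insulin-like growth factor (IGF) system were examined in islets of pregnant mice. The names listed for this system were 10 (INSR, IGF1R, IGF1, IGF2, IRS1, IRS2, IGFBP2, IGFBP3, IGFBP5 and IGFBP7), and all were found among the 34082 gene names of the table by an exact match of the name. Islets came from C57BL/6 mothers on day 15 of pregnancy that had been mated with wild type males. Of the mothers, 4 were βPrlR+/- mice, in which tamoxifen had activated a Pdx1-driven CreER recombinase to delete floxed exon 5 of 1 allele of the prolactin receptor gene Prlr. The other 3 were Prlr+/- mice, with 1 Prlr allele deleted in every tissue, no Cre and no tamoxifen. The labels title these βPrlR+/- mice CkoWt, and what the Wt in that title stands for is not given in the sources used here. The submitters' design text describes the conditional deletion as homozygous and the mice as 3 to 4 months old. The methods of the study describe a heterozygous deletion and 4 to 5 months. Genotype, Cre and tamoxifen therefore differed together between the groups and cannot be told apart, and no wild type islets were analysed here.

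Insulin and the IGFs act through the related tyrosine kinase receptors INSR and IGF1R, which phosphorylate the docking proteins IRS1 and IRS2 and so engage the PI3K, AKT and MAPK pathways. IGF binding proteins hold IGFs outside the cell and set how much ligand reaches the receptor. In β-cells, IRS2 is known for its part in the maintenance of β-cell mass, and IGF2 is an imprinted fetal growth factor whose gene lies next to the insulin gene Ins2 on mouse chromosome 7.

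None of the 8 members that could be tested passed limma's threshold of an adjusted p of 0.05 (0 of 8, against 10 of the 14840 genes tested, 0.0674%). The differences that stood furthest from the spread between mice were a lower IGF2 level in the Prlr+/- islets, at 59.0% of the βPrlR+/- mean, and opposite differences of 2 binding proteins, with IGFBP3 at 59.4% and IGFBP5 at 149.98% of it. INSR was at 86.5%. At an unadjusted p under 0.05, 4 of the 8 tested members were reached (INSR, IGF2 and IGFBP3 lower, IGFBP5 higher), against 4.52% of all genes in either direction and 2.94% in the lower direction. This count rested on single mice and settings. It fell to 1 (IGF2) without replicate 2 of the Prlr+/- mice, and to 2 without replicate 3 of the Prlr+/- mice, without replicate 3 or replicate 4 of the βPrlR+/- mice, or with robust limma. With the endothelial marker mean as a covariate it was 1 (IGFBP3). All 12 tested endothelial markers themselves had lower estimates in the Prlr+/- mice, so this covariate went with the groups and made the estimates less precise. INSR moved from -0.18 to -0.25 with it, while its unadjusted p in limma rose from 0.049 to 0.118. The count with this covariate therefore does not show what endothelial content accounts for. IGF1R, IRS1, IRS2 and IGFBP7 had 95% intervals that included 0.

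Values are transcripts per 1000000 (TPM) divided by a size factor for each mouse, here called scaled TPM, and differences are limma estimates of log2(scaled TPM + 1), Prlr+/- minus βPrlR+/-. The size factors lay between 0.882 and 1.11. The insulin genes INS and Ins1 held 46.1% to 58.9% of each mouse's TPM, the values themselves carry no read depth, and Prlr itself was at 38.4 to 55.7 in the βPrlR+/- and 35.1 to 51.1 in the Prlr+/- islets, which overlapped. A total over all Prlr transcripts does not read the deleted exon. The summed level of 10 β-cell markers was 451635 to 599286 in the βPrlR+/- and 582574 to 715449 in the Prlr+/- mice, so the labelled islet tissue carried its defining genes, and that of 10 acinar markers ranged from 2856 to 24624 between mice. In bulk islets, fewer cells of a type and less RNA per cell cannot be told apart.

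**Figure D1:**
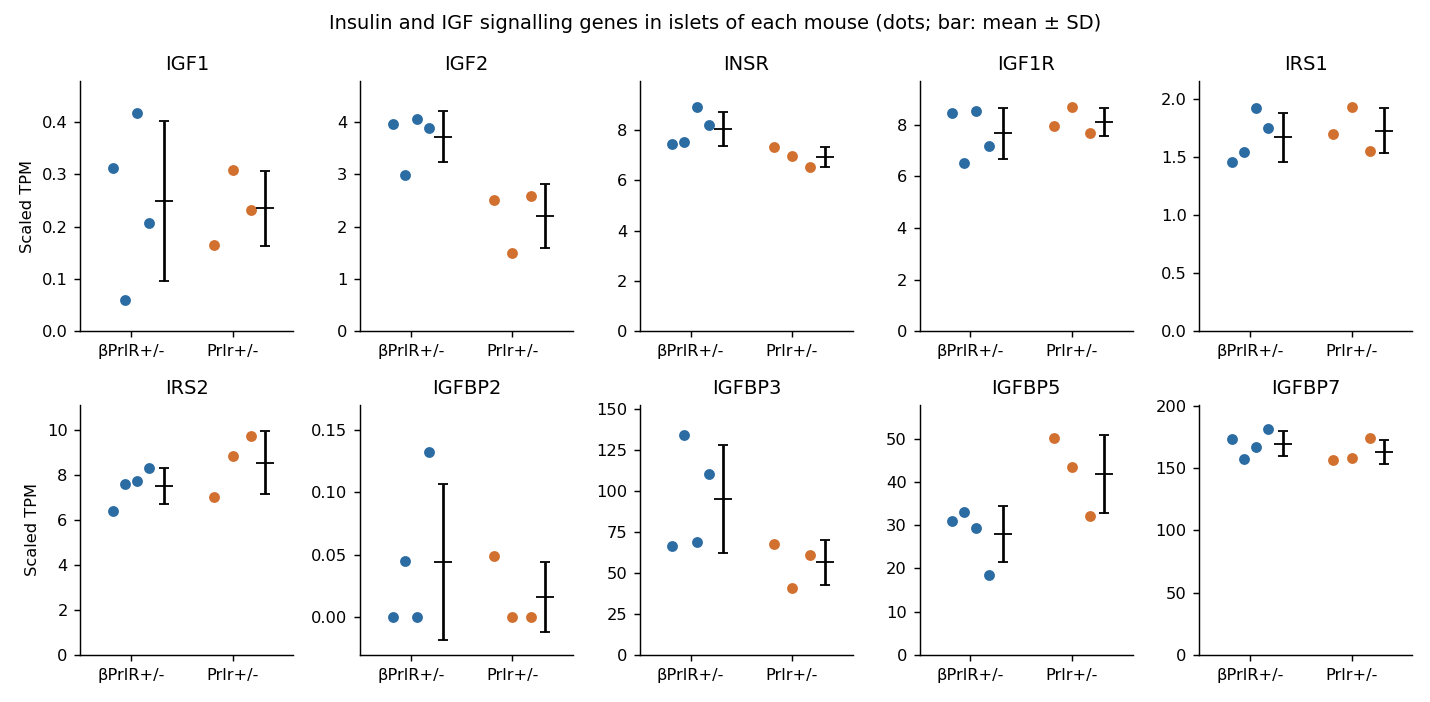
Scaled TPM (vertical axes, from 0 except for IGFBP2, whose axis begins just under 0) of the 10 members in each βPrlR+/- (blue, n = 4) and Prlr+/- (orange, n = 3) mouse, with the group mean ± SD beside the dots. The IGF2 and INSR dots of the groups do not overlap, and those of the other 8 members do.

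The levels of the members spanned several orders of size, and since TPM is per transcript length the genes can be set side by side. IGFBP7 was highest, with a mean over the 7 mice of 166.7 scaled TPM, followed by IGFBP3 at 78.5 and IGFBP5 at 34.0. IRS2 (7.97), IGF1R (7.86) and INSR (7.56) came next with overlapping ranges, and their order was not the same in every mouse. IGF2 was at 3.07 and IRS1 at 1.70. IGF1 (0.243) and IGFBP2 (0.0323) fell under the minimum mean of 0.5 TPM and were not tested. IGFBP7 exceeded IGFBP3 in 7 of 7 mice, IGFBP3 exceeded IGFBP5 in 6 of 7, and IGF2 exceeded IRS1 in 6 of 7. The exceptions were both replicate 2 of the Prlr+/- mice, which had the lowest IGFBP3 and the lowest IGF2 of the series.

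The differences in IGF2 and INSR are described by transcript below, so sequences at 2 of the IGF2 starts and the known alternative exon of INSR are given first. The start of the most abundant IGF2 transcript, NM_010514.3, is not shown, because the RefSeq window at base 142658804 lies inside the first exon of its GENCODE model, which starts at base 142659489. GENCODE M21 pairs the IGF2 transcript NM_001315488.1 with a model that starts at base 142666816 of mouse chromosome 7 (GRCm38, minus strand), and NM_001315489.1 with one that starts at base 142657496. The 150 bases before each start in the RefSeq promoter table (GRCm38.p6) are chr7:142666817-142666966 and chr7:142657497-142657646, and neither overlaps an exon of a GENCODE Igf2 model. They are shown because the transcript from the second start differed most between the groups among those of IGF2. This choice followed the values and is no test. Capitals mark GGGCGG, the GC box bound by SP1 family factors.
Start of NM_001315488.1: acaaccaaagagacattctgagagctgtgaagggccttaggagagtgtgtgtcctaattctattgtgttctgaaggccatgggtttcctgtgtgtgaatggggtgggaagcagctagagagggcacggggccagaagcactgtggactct
Start of NM_001315489.1: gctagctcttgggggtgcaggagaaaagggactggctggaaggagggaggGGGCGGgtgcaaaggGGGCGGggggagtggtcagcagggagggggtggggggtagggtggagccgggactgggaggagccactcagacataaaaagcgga
The first held 52.0% G and C and no GC box. The second held 66.7% G and C and 2 GC boxes.

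INSR is known for an alternatively spliced coding exon of 36 bases whose use separates its A and B isoforms. It lies at chr8:3181702-3181737 (GRCm38, minus strand), and is shown in capitals with the 12 bases on either side of it in the GENCODE model Insr-203.
Insr 36-base exon: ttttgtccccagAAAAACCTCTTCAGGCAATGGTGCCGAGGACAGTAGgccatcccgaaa
The full-length model Insr-201, which GENCODE pairs with NM_010568, lacks this exon. Whether NM_001330056.1 holds it is not given in the sources used here, so the transcript levels of INSR are not isoform A and B levels.

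Of the ligands, IGF2 was measured at 3.95, 2.99, 4.05 and 3.89 scaled TPM in the 4 βPrlR+/- mice, against 2.52, 1.49 and 2.58 in the 3 Prlr+/- mice. Every Prlr+/- value lay under every βPrlR+/- value, the nearest being 2.58 and 2.99. The means were 3.72 ± 0.492 (SD, n = 4) and 2.20 ± 0.609 (SD, n = 3), and the limma difference was -0.58 ± 0.15 (log2, SE; adjusted p = 0.694). The exact two-sided permutation test of the mean log2 values gave p = 0.0286, the smallest that 35 assignments of 7 mice allow. Groups that did not overlap were found for 2 of the 8 tested members, both lower, against 4.95% of all genes in either direction and 3.11% in the lower direction. The direction of IGF2 was kept under each of 17 alternatives, with adjusted p between 0.337 and 0.99998.

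IGF2 levels were split by Kallisto among 3 main transcripts that share their last exons, so the split is an estimate. NM_001315489.1 was at 0.834, 0.617, 0.890 and 0.854 scaled TPM in the βPrlR+/- mice, against 0.302, 0.0476 and 0.0484 in the Prlr+/- mice. It made up 21.4% ± 0.657 (SD, n = 4) of IGF2 in the former and 5.69% ± 5.51 (SD, n = 3) in the latter. Its share was nearly the same in the 4 βPrlR+/- mice (20.6% to 22.0%) and between 1.88% and 12.003% in the Prlr+/- mice. The difference of its level was -0.67 ± 0.14 (log2, SE), with an adjusted p of 0.916 in limma over the 28553 transcripts tested. Its mean was 0.799 scaled TPM in the βPrlR+/- mice and 0.133, near the floor, in the Prlr+/- mice. It thus passed the minimum mean of 0.5 TPM only through the βPrlR+/- mice. Its level and share are therefore given as values, and its limma result carries no weight as a test.

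The most abundant IGF2 transcript, NM_010514.3, was also lower without overlap, at 1.87 to 2.04 scaled TPM against 1.20 to 1.75 (difference -0.25 ± 0.12, log2, SE; adjusted p = 0.99998, limma). NM_001315488.1 was at 0.498 to 1.15 against 0.201 to 0.784, with groups that overlapped. All 3 main transcripts thus had lower means in the Prlr+/- mice. No member transcript passed the threshold in limma (0 of 17 tested, against 6 of all transcripts, 0.021%). At an unadjusted p under 0.05 there were 4 of the 17, against 3.91% of all transcripts. They were NM_001315489.1 of IGF2, NM_010568.3 of INSR, the only transcript of IGFBP5, and XM_011243665.2 of IGFBP3. The last had a difference of -0.88 ± 0.31 (log2, SE, adjusted p = 0.99998 in limma), with groups that overlapped. Groups did not overlap for 3 of the 17, all lower, against 4.43% of all transcripts. NM_001315489.1 is in both counts, although it was among the 17 only through its level in the βPrlR+/- mice.

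**Figure D2:**
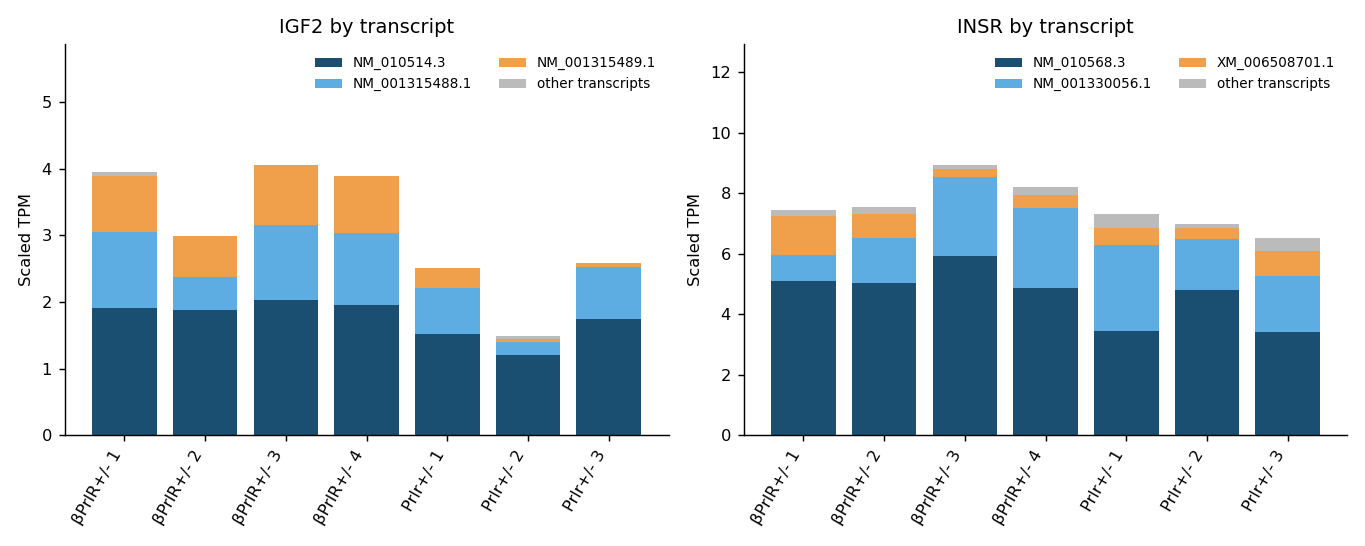
Scaled TPM (stacked bars) of the 3 most abundant transcripts of IGF2 and INSR, and of all their other transcripts together, in each of the 7 mice. The orange part of the IGF2 bars, NM_001315489.1, is 0.617 to 0.890 in the βPrlR+/- mice and 0.0476 to 0.302 in the Prlr+/- mice.

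Markers of islet endothelium were examined beside IGF2. All 12 tested genes of a list of 13 endothelial markers had lower estimates in the Prlr+/- mice (median -0.23, against 0.00 over all genes tested), 0 of 12 passed the limma threshold (0.0674% of all genes), and 6 of 12, all lower, had an unadjusted p under 0.05 (2.94% of all genes in that direction). Their summed level was 206.4 to 244.0 scaled TPM in the βPrlR+/- mice and 172.0 to 211.2 in the Prlr+/- mice, and none was listed at 0 in all mice. Other lists had lower medians too: α-cell markers (-0.18, 8 of 9 lower), δ- and PP-cell markers (-0.22, 5 of 6 lower), neuron and glia markers (-0.22, 6 of 8 lower), fibroblast and pericyte markers (-0.12, 9 of 10 lower) and other leukocyte markers (-0.26, 2 of 4 lower). Macrophage and duct markers had medians of 0.02 each, and 10 of 10 acinar markers had higher estimates (median 0.11). Of the fibroblast and pericyte list 1 gene, THY1, passed the threshold (adjusted p = 0.0410, limma), whereas 9 of 10 β-cell markers had higher estimates (median 0.30). With the endothelial mean as a covariate, which itself went with the groups, the IGF2 difference was -0.46 (adjusted p = 0.9996, limma). With the acinar mean it was -0.58 (adjusted p = 0.759, limma), as without a covariate. The part of the remaining cell types in the IGF2 difference was not tested.

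IGF1, the ligand made mainly by liver and by stromal cells and macrophages, was at 0.312, 0.0593, 0.417 and 0.207 scaled TPM in the βPrlR+/- mice, against 0.165, 0.308 and 0.232 in the Prlr+/- mice. The groups overlapped fully at these low levels (exact permutation p = 0.971). The insulin genes, which supply the ligand of INSR from the β-cells themselves, were the most abundant of the islet. INS was at 314706 to 424672 scaled TPM in the βPrlR+/- mice, against 410030 to 512365 in the Prlr+/- mice, with a difference of 0.30 ± 0.13 (log2, SE from the spread of the 7 mice; exact permutation p = 0.0857). In limma, whose variance trend is fitted over all genes, the SE was 0.96.

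Of the receptors, INSR was at 7.46, 7.53, 8.92 and 8.19 scaled TPM in the βPrlR+/- mice, against 7.32, 6.98 and 6.52 in the Prlr+/- mice. The groups did not overlap, but the gap between 7.46 and 7.32 was smaller than the spread within either group. The difference was -0.18 ± 0.08 (log2, SE), with a 95% interval of -0.37 to -0.00 (adjusted p = 0.9999, limma; exact permutation p = 0.0571). Leaving out each mouse in turn moved it between -0.22 and -0.14, and with the deposited TPM unscaled it was -0.31. Its main transcript NM_010568.3 was at 5.11, 5.02, 5.92 and 4.86 in the βPrlR+/- mice against 3.46, 4.80 and 3.42 in the Prlr+/- mice. These groups also did not overlap (-0.36 ± 0.13, log2, SE; adjusted p = 0.99998, limma). The second transcript, NM_001330056.1, was at 0.832 to 2.63 against 1.69 to 2.83 and overlapped.

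IGF1R, the receptor for both IGFs, was at 8.45, 6.52, 8.53 and 7.20 scaled TPM in the βPrlR+/- mice, against 7.95, 8.70 and 7.69 in the Prlr+/- mice. The difference of 0.08 ± 0.10 (log2, SE; exact permutation p = 0.486) had a 95% interval of -0.16 to 0.31 and the groups overlapped. With the deposited TPM unscaled it was -0.05, where the median of all genes moved from 0.00 to -0.12. It was between 0.01 (without replicate 2) and 0.12 (without replicate 3 of the βPrlR+/- mice) when each mouse was left out, and 0.19 with the endothelial covariate. IGF1R and INSR were at nearly equal levels: the ratio IGF1R to INSR was 0.866 to 1.13 in the βPrlR+/- mice and 1.09 to 1.25 in the Prlr+/- mice. The acinar marker sum was highest in replicates 1 and 3 of the βPrlR+/- mice and replicate 2 of the Prlr+/- mice (24624, 24609 and 20257), and these 3 mice also had the 3 highest IGF1R values. With the acinar mean as a covariate the IGF1R difference was 0.06 (adjusted p = 0.9999, limma).

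The groups overlapped for both docking proteins. IRS2 was at 6.40, 7.61, 7.75 and 8.32 scaled TPM in the βPrlR+/- mice, against 7.03, 8.88 and 9.77 in the Prlr+/- mice. The 2 highest values were Prlr+/- mice, but replicate 1 of the Prlr+/- mice was the second lowest of the 7 (difference 0.16 ± 0.12, log2, SE, 95% interval -0.12 to 0.44; exact permutation p = 0.286). Leaving out single mice moved the IRS2 difference to 0.28 without replicate 1 of the Prlr+/- mice, to 0.07 without their replicate 3 and to 0.09 without replicate 1 of the βPrlR+/- mice, with adjusted p of 0.943 or more in limma. The first of these had an unadjusted p under 0.05. With the deposited TPM unscaled the IRS2 difference was 0.03, and with the endothelial covariate 0.29. IRS1 was at 1.46, 1.55, 1.93 and 1.75 in the βPrlR+/- mice, against 1.70, 1.94 and 1.55 in the Prlr+/- mice. The groups interleaved, with a difference of 0.03 ± 0.09 (log2, SE, 95% interval -0.19 to 0.25; exact permutation p = 0.686) whose sign changed in 4 of 17 alternatives. IRS2 exceeded IRS1 in each mouse, by 4.02 to 6.29 times.

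Of the binding proteins, IGFBP3, the main carrier of circulating IGF, was at 66.7, 134.2, 68.8 and 110.6 scaled TPM in the βPrlR+/- mice, against 67.5, 40.9 and 61.0 in the Prlr+/- mice. Replicates 2 and 4 of the βPrlR+/- mice stood above the rest, and replicates 1 and 3 lay beside the highest Prlr+/- mouse. The difference was -0.71 ± 0.29 (log2, SE; adjusted p = 0.9999, limma; exact permutation p = 0.143). Leaving out each mouse in turn moved it between -0.49 and -0.85. Replicates 2 and 4 were also the βPrlR+/- mice with the lowest acinar marker sums (2856 and 8268). With the acinar mean as a covariate the IGFBP3 difference was -0.66 (adjusted p = 0.165, limma), the lowest adjusted p among its 17 alternatives (0.165 to 0.99999), and with the endothelial mean it was -1.20 (adjusted p = 0.9996).

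IGFBP5, a binding protein kept largely in the extracellular matrix, was at 30.9, 33.1, 29.4 and 18.5 scaled TPM in the βPrlR+/- mice, against 50.1, 43.6 and 32.2 in the Prlr+/- mice. The 2 highest values were Prlr+/- mice, and the groups overlapped only in that replicate 2 of the βPrlR+/- mice (33.1) lay above replicate 3 of the Prlr+/- mice (32.2). The difference was 0.58 ± 0.22 (log2, SE; adjusted p = 0.9999, limma; exact permutation p = 0.0857). Without replicate 4 of the βPrlR+/- mice, the lowest value, it was 0.40. IGFBP5 has a single transcript in the table, so a difference between transcripts could not be tested.

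Set against each other, IGFBP3 was at 2.16, 4.05, 2.34 and 5.98 times the IGFBP5 level in the βPrlR+/- mice, against 1.35, 0.940 and 1.89 times in the Prlr+/- mice. The ratio did not overlap between the groups. It was computed after the values of both genes had been seen and carries no test.

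**Figure D3:**
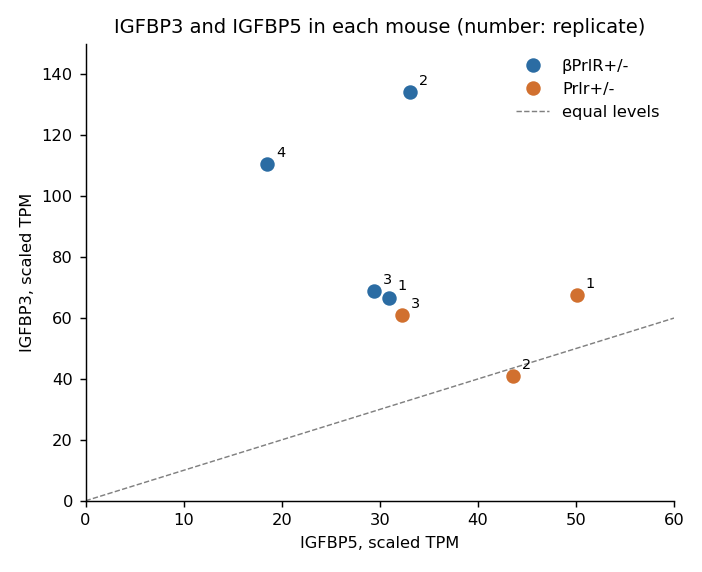
Scaled TPM of IGFBP5 (horizontal) and IGFBP3 (vertical) in each βPrlR+/- (blue) and Prlr+/- (orange) mouse, numbered by replicate, with a dashed line at equal levels. The βPrlR+/- mice lie higher above the line (2.16 to 5.98 times) than the Prlr+/- mice (0.940 to 1.89 times).

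IGFBP7, a secreted protein related to the IGFBPs and made by endothelial cells, was the member that varied least over the 7 mice. Its highest value was 1.16 times its lowest. It was at 172.9, 157.0, 167.2 and 181.1 scaled TPM in the βPrlR+/- mice, against 156.5, 158.1 and 173.8 in the Prlr+/- mice. The difference was -0.06 ± 0.07 (log2, SE, 95% interval -0.23 to 0.12; exact permutation p = 0.457), with coefficients of variation of 5.98% and 5.85% within the groups. With the deposited TPM unscaled it was -0.20 (adjusted p = 0.590, limma), and leaving out each mouse moved it between -0.11 (without replicate 3 of the Prlr+/- mice) and -0.03 (without replicate 4 of the βPrlR+/- mice). IGFBP2 was listed at 0, 0.0452, 0 and 0.132 in the βPrlR+/- mice, against 0.0489, 0 and 0 in the Prlr+/- mice, although its gene neighbours Igfbp5 in the RefSeq order of chromosome 1. The summed level of the 4 IGFBP members was 265.4 to 324.3 in the βPrlR+/- mice and 242.6 to 274.2 in the Prlr+/- mice, so the total overlapped between the groups.

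**Figure D4:**
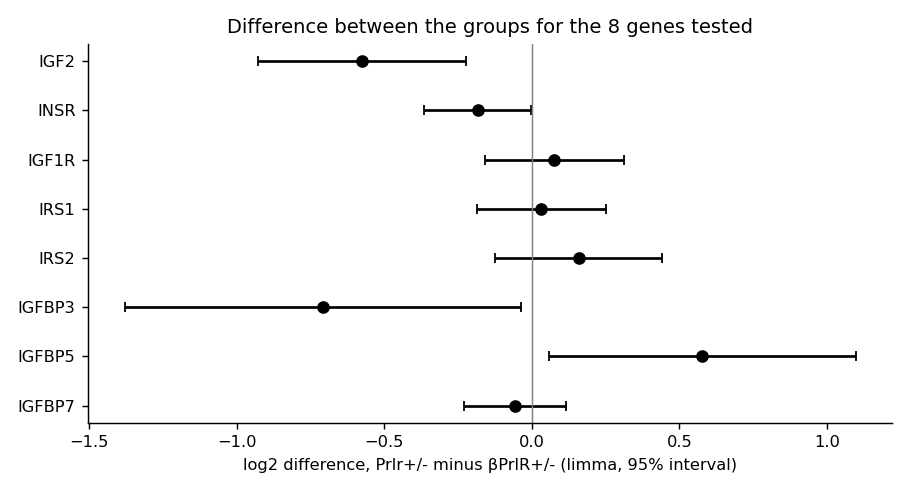
limma estimates of the log2 difference (Prlr+/- minus βPrlR+/-, horizontal) with 95% intervals for the 8 tested members. The intervals of IGF2, INSR and IGFBP3 lie under 0 and that of IGFBP5 above it, before adjustment over the 14840 genes.

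The rest of the pathway was read from 12 lists that held 85 further genes, of which 74 were tested. None passed the limma threshold (0 of 74, against 0.0674% of all genes), 3 had an unadjusted p under 0.05 (1 lower, 2 higher, against 4.52% of all genes) and the median difference was 0.01 against 0.00 over all genes tested. Groups did not overlap for 4 of the 74, with 2 lower and 2 higher, against 4.95% of all genes. Both counts were near the share over all genes, and the 4 genes are given as values. IGFBP4, a further binding protein, was at 5.30, 4.94, 4.64 and 5.02 scaled TPM in the βPrlR+/- mice, against 2.41, 3.12 and 3.94 in the Prlr+/- mice. Every Prlr+/- mouse was under every βPrlR+/- mouse, and the difference (-0.54 ± 0.12, log2, SE; adjusted p = 0.543, limma) was of the size of that of IGF2.

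TBC1D4, the AKT substrate AS160 that controls vesicle traffic, was at 4.23 to 5.17 in the βPrlR+/- mice, against 5.61 to 6.90 in the Prlr+/- mice (0.36 ± 0.09, log2, SE; adjusted p = 0.694, limma). PTPN11, the phosphatase SHP2 that links receptors to RAS, was at 43.9 to 45.4 against 46.4 to 53.8 (0.18 ± 0.06, log2, SE; adjusted p = 0.963, limma). INPP5D, the lipid phosphatase SHIP1 of blood cells, was at 0.978 to 1.13 against 0.783 to 0.940 (-0.10 ± 0.08, log2, SE; adjusted p = 0.9999, limma). The groups overlapped for both kinases downstream of the receptors that were highest in their lists. AKT1 was at 88.7 ± 4.98 (SD, n = 4) and 99.0 ± 9.85 (SD, n = 3), and MAPK3 at 158.2 ± 13.2 (SD, n = 4) and 158.2 ± 21.8 (SD, n = 3).

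The highest genes of the other lists that are named here had overlapping groups, with adjusted p of 0.9999 in limma. Among receptors, INSRR, an orphan relative of INSR, was at 104.6 ± 8.70 (SD, n = 4) and 109.5 ± 22.5 (SD, n = 3), above INSR and IGF1R in every mouse. In the βPrlR+/- mice the mean of INSR was 8.02. IGFALS, which binds IGF and IGFBP3 in a complex, was at 38.5 ± 7.32 (SD, n = 4) and 45.3 ± 4.01 (SD, n = 3). The adaptor SHC1, the phosphatase PTPRF, the GTPase RHEB, the transcription factor FOXO1, the protease ADAM9 and the RNA binding protein IGF2BP2 had differences between -0.15 (FOXO1) and 0.18 (IGF2BP2).

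**Figure D5:**
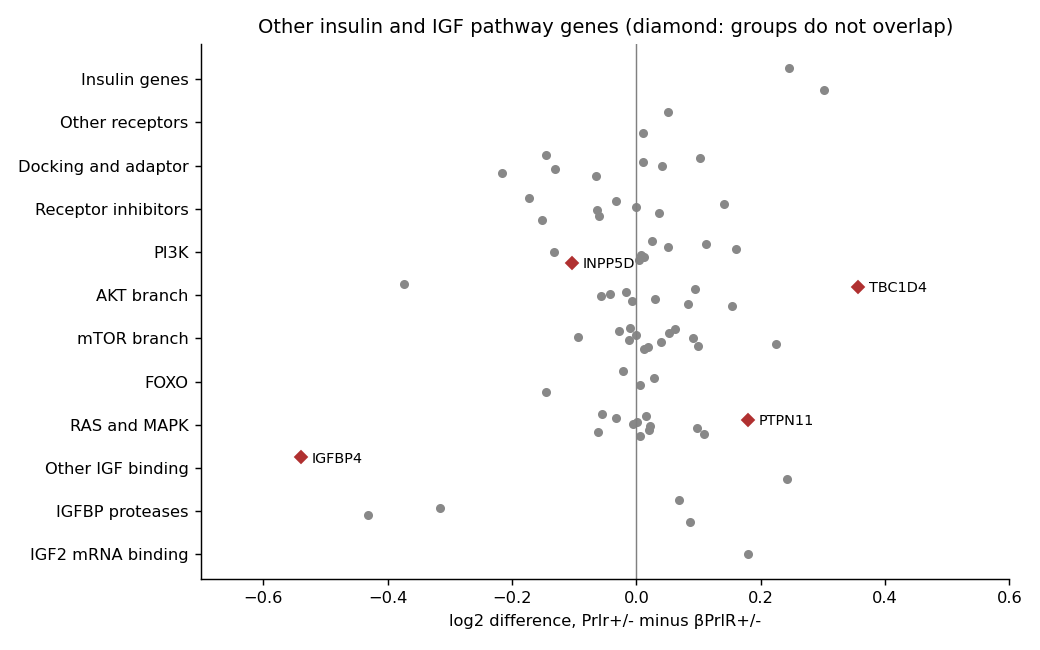
log2 difference (Prlr+/- minus βPrlR+/-, horizontal) of the 74 tested pathway genes that are not members, 1 row per list. Diamonds mark the 4 genes whose groups do not overlap, from IGFBP4 at -0.54 to TBC1D4 at 0.36.

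The genes whose log2 levels followed those of each member most closely over the 7 mice, among the 8976 or 8977 other genes with a mean of at least 5 scaled TPM, are given as a description, since so many candidates over 7 mice give high coefficients. IGF2 was most like JAM2 (Pearson r = 0.96), a junction protein of endothelium, and CADM4 (0.96). IGFBP3 was most like OLFM1 (0.98) and IGFBP5 most like GAS2 (0.98). IGF1R was most like CEL, ERP27 and PNLIP (0.95 each), of which CEL and PNLIP are lipases of acinar cells. The closest genes for IRS1, IRS2, INSR and IGFBP7 were DIDO1 (0.98), USP16 (0.97), the pseudogene Rps15a-ps4 (0.97) and TTC38 (0.92).

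RefSeq promoter windows of 300 bases (250 before and 50 after a start) were found for 9 of the 10 members (all but INSR), 13 windows in all. The palindrome TTCNNNGAA, the core of the element that STAT5 binds below the prolactin receptor, was in 0 of 13 windows and in 8.30% of all 32851 windows. TATAAA, searched on both strands like the others, was in 0 of 13 against 13.6%, and the GC box GGGCGG in 7 of 13 against 35.7%. These counts say only which letters the windows hold.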

How the data were processed

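Islet RNA of 7 mice (4 βPrlR+/- and 3 Prlr+/-, 1 library each) had been sequenced by the authors from poly(A)-selected, strand-specific libraries and assigned to mouse RefSeq transcripts with kallisto 0.42.4, a version given in the submitters' processing notes. The authors deposited TPM values under the name FPKM, since those of each mouse summed to 1000000. The genome build is not given in the sources used here. The methods state a range of reads per sample for the study, but TPM does not carry the reads behind a single value, so errors were taken from the spread between mice. Transcript values added up to the gene values, and each value of the series tables equalled that of the per-mouse tables. One per-mouse transcript table (βPrlR+/- replicate 4) held 2195 further malformed rows without a value, which were not used.

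For scaling, TPM was divided by a size factor, the median ratio over genes with a mean of at least 0.5 TPM that were above 0 in every mouse. The plan named a median-ratio factor without that minimum. The minimum was set with the gene counts of both versions and of an earlier analysis in view, and the factor without it is among the alternatives. Genes with a mean of at least 0.5 TPM (14840 of 34082) were fitted as log2(scaled TPM + 1) in limma 3.58.1 (R 4.3.3) with a variance trend, all 7 mice and no covariate, and p-values were adjusted by the Benjamini-Hochberg method over all genes tested. Transcripts were fitted likewise. Exact two-sided permutation tests of the mean log2 values used all 35 assignments. The fit was also run on simulated data with independent noise for each gene. The planted differences were larger than those of the members and lay in genes that were not low. That run therefore says nothing about small differences or low genes. Members and lists were chosen with earlier results of these data known. Of the other pathway genes, those past the threshold, up to 2 per list with groups that did not overlap, and the highest of each list were named (1 of these is not reported here); for each member the 3 most correlated genes, of which those first in rank are given, and transcripts with at least 10% of its level. Scaling, pseudocount, filters, limma settings, marker covariates and leaving out each mouse were the alternatives. The labels name no batch. Figures were drawn with matplotlib 3.10.9. Sequences came from the RefSeq promoter table and GENCODE M21, both on GRCm38.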

Additional observations from a re-analysis of the deposited data

Results flagged for a closer look

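The IGF2 level of replicate 2 of the βPrlR+/- mice (2.99 scaled TPM) stood apart from the other 3 mice of its group (3.89 to 4.05), with a gap of 0.846 of the group's range, above the critical value for 4 samples. Chance flags about 1 in 20 such groups, and 10 members were examined. Without this mouse the IGF2 difference was -0.65 (adjusted p = 0.835, limma). This mouse also had the lowest acinar marker sum of the series, at 2856 scaled TPM.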

How the results depend on the processing

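No member and no other pathway gene passed the limma threshold under any alternative run, and no member transcript did under those run for transcripts. Of 136 member differences under alternatives, 130 kept their direction. The 6 that changed sign were small: IGF1R with unscaled TPM (-0.052), IGFBP7 with the endothelial covariate (0.010), and IRS1 with unscaled TPM (-0.060), with the endothelial covariate (-0.029), without replicate 1 of the βPrlR+/- mice (-0.0068) and without replicate 2 of the Prlr+/- mice (-0.022). Leaving out each mouse moved IRS1 between -0.022 and 0.079. The cause was not tested. The number of all genes past the threshold, 10 in the report, was 6 with upper-quartile scaling, 18 with a pseudocount of 0.1, 4 over all genes above 0, 2 with the endothelial and 6 with the acinar covariate, and 2 at an adjusted p of 0.01. It was 6 with size factors over all genes above 0 in every mouse, low genes included, an alternative added after seeing the data. Leaving out each mouse gave 2 to 13 genes and 3 to 11 transcripts. IGF2 was -0.40 without replicate 2 of the Prlr+/- mice. IGF1 and IGFBP2, both under 0.5 TPM, were tested only over all genes above 0, and the reads behind such low values are not in the TPM. With 4 and 3 mice, no exact p under 0.0286 can be reached.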
